A study of Mus musculus with 17 samples.

Results

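The 10 p53 target genes described here are *Mdm2*, *Ccng1*, *Cdkn1a*, *Bax*, *Bbc3*, *Eda2r*, *Phlda3*, *Sesn2*, *Trp53inp1* and *Zmat3*. They were taken by symbol from the 54532 genes of the deposited expression table, in which each symbol stood once. RNA was sequenced from mouse embryonic stem cells of the R1/E line (R1 in the labels), either wild-type (WT) or *Usb1* knockout (KO), to ask whether *Usb1* is needed for pluripotency. Cells of both genotypes were collected without retinoic acid (RA; day 0), after 1 day of RA (day 1) and after 3 days of RA (day 3). RA is the agent that the study names for this course. There were 17 libraries, 2 for WT cells at day 0 and 3 for each of the other 5 groups, described in the methods of the study as independent biological replicates. The KO libraries came from a single line, KO-1, made with CRISPR/Cas9, so that an effect of the knockout and a property of this clone cannot be told apart. *Usb1* encodes the enzyme that trims the 3′-end of U6 snRNA, the splicing RNA, and leaves a cyclic phosphate there.

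Most of these genes changed along the RA course in both genotypes. By day 3, 6 of 10 were higher than at day 0 in WT cells, where 29.6% of all genes tested were, and 7 of 10 in KO cells, where 29.7% were. No library came from untreated cells at day 1 or day 3, so RA and time in culture cannot be told apart. The genotypes differed most at day 1, when 7 of 10 were lower in *Usb1* KO cells, against 13.6% of all genes, led by *Trp53inp1* at 2.1-fold lower, and 4 of these were lower when every library was scaled to an equal median. At day 3, *Mdm2* was the one member that passed the test.

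p53 is a transcription factor that is held low in unstressed cells by MDM2, a ubiquitin ligase that marks it for degradation and whose own gene p53 switches on. DNA damage and other stresses free p53 from MDM2, and it then raises genes that halt the cell cycle, start cell death, repair DNA and adjust metabolism. Embryonic stem cells carry much p53 protein for dividing cells, and p53 is also known to take part in their exit from pluripotency.

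p53 binds DNA at an element made of a pair of similar decamers. RefSeq windows of 300 bases (250 before and 50 from each transcription start, GRCm38.p6) were available for 8 members in 11 windows. *Trp53inp1* and *Zmat3* were not in the table. The p53 decamer consensus, searched on both strands of each window, was found in 4 of these 11 windows, those of *Cdkn1a*, *Mdm2*, *Ccng1* and *Bax*, or 36.4%, against 8.36% of the 32851 windows of all genes. The 20-base element without a spacer, allowing 1 base not to match, was found in the windows of *Cdkn1a* and *Ccng1*, or 18.2% of the 11, against 0.0883% of all windows. At 17 or more matching bases, *Bbc3* and *Bax* were added, giving 36.4% of the 11 windows against 6.29% of all. The closest stretches are printed here because they are the stretches of these promoters nearest to the p53 element, and since the genes were picked as p53 targets, the element is not independent of that choice. Capitals mark the 20 bases closest to the element, with 19 of 20 bases matching for *Cdkn1a* and *Ccng1* and 17 of 20 for *Bbc3* and *Bax*, and for *Mdm2* the single decamer. The stretches lie at chr17:29090913-29090962 (plus strand) for *Cdkn1a*, chr11:40755447-40755496 (minus strand) for *Ccng1*, chr7:16309471-16309520 (plus strand) for *Bbc3*, chr7:45467075-45467124 (minus strand) for *Bax* and chr10:117710920-117710959 (minus strand) for *Mdm2*.
Cdkn1a: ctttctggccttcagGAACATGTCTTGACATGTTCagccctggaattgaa
Ccng1: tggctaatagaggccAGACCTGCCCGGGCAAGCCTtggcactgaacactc
Bbc3: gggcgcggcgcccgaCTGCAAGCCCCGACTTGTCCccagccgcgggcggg
Bax: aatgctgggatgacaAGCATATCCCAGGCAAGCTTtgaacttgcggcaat
Mdm2: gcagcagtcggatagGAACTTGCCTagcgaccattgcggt
Counted from the transcription start of the window that holds them, the capitals begin 51 bases before it in *Cdkn1a* and 195 in *Ccng1*. The distance is 97 bases in *Bbc3*, 211 in *Bax* and 186 in *Mdm2*. *Cdkn1a* had a further window (chr17:29093519-29093818), which held no decamer and had at most 15 matching bases. The further windows of *Bbc3* held no decamer either and had at most 15 and 14 matching bases. A match of this kind is a description of the letters and was not a measurement of binding. The windows of *Sesn2*, *Eda2r* and *Phlda3* held no decamer and had at most 15 matching bases, which says only that the letters were not in these 300 bases.

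Across the libraries, the reads recovered on genes ranged from 15404379 to 17300186, and every member had at least 312 reads in each library. *Usb1* mRNA was at 32.0 to 56.9 TPM (transcript abundance scaled to a fixed total per library, already divided by gene length) in the 8 WT libraries and at 14.7 to 21.4 TPM in the 9 KO libraries, without overlap. The Y-linked genes *Eif2s3y* and *Ddx3y* were listed at 0 in all 9 KO libraries and at 50.1 TPM or more in all WT libraries. All 6 embryonic stem cell markers tried (*Pou5f1*, *Nanog*, *Sox2*, *Esrrb*, *Zfp42*, *Klf4*) were at 1 TPM or more in every group. WT day 0 replicate 1 had 239 genes with a single read and KO day 3 replicate 1 had 1224, against 1352 to 2467 in the other 15 libraries. Many of the results whose call or count these libraries changed are also given without them. Since the RNA came from whole cultures, fewer cells expressing a gene and less RNA per cell cannot be told apart.

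The first question was how the members moved along the RA course within each genotype. Tests were made with limma on log2(TPM + 1) over all 21871 genes that reached 1 TPM in at least 2 libraries, all 10 members among them, and a gene passed at an adjusted p under 0.05. In WT cells, 2 members passed as higher and 1 as lower at day 1 against day 0, where 25.5% and 12.5% of all genes passed in these directions, with a median log2 change of 0.18 over all genes and 0.07 over the 10 members. From day 1 to day 3 in WT cells, 5 rose and 2 fell, against 19.5% and 24.3% of all genes. From day 0 to day 3 in WT cells, 6 rose and 1 fell, against 29.6% and 22.5% of all genes. The median log2 change from day 0 to day 3 was 0.50 over the 10 members and 0.10 over all genes tested. With quantile normalization, 6 rose and 2 fell over these 3 days, and with scaling to an equal median, 6 rose and 3 fell. Without KO day 3 replicate 1, *Zmat3* also passed as lower over these days in WT cells (log2 fold change -0.25, adjusted p = 0.0454). It passed as lower without WT day 3 replicate 3 too (-0.36, adjusted p = 0.00808). The step from day 0 to day 1 in WT cells depended on scaling, since with an equal median *Mdm2* and *Sesn2* fell and no member rose.

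In *Usb1* KO cells, 5 members fell at day 1 against day 0 and none passed as higher, where 16.0% of all genes rose and 11.7% fell. No member was higher at an unadjusted p under 0.05 either, or by voom, limma's fit on reads. From day 1 to day 3, 9 members rose and *Bax* fell in KO cells, against 25.5% and 19.4% of all genes. From day 0 to day 3, 7 rose and 2 fell in KO cells, against 29.7% and 21.8% of all genes, with 7 and 1 after quantile normalization. The members' median log2 change was -0.21 in the first day, 0.93 from day 1 to day 3 and 0.58 over the whole course, and the medians of all genes were 0.02, 0.04 and 0.03.

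Markers of cell state moved with the days in both genotypes. The summed level of the 6 embryonic stem cell markers fell from 5063 to 5152 TPM at day 0 to 312 to 353 TPM at day 3 in WT cells, and from 4927 to 5394 TPM to 510 to 578 TPM in KO cells. The summed level of 5 extraembryonic endoderm markers (*Gata4*, *Gata6*, *Sox17*, *Dab2*, *Lama1*) went from 139 to 152 TPM to 1312 to 1618 TPM in WT cells and from 95.4 to 119 TPM to 475 to 576 TPM in KO cells. Their part in the changes of the p53 targets was not tested.

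**Figure D1:**
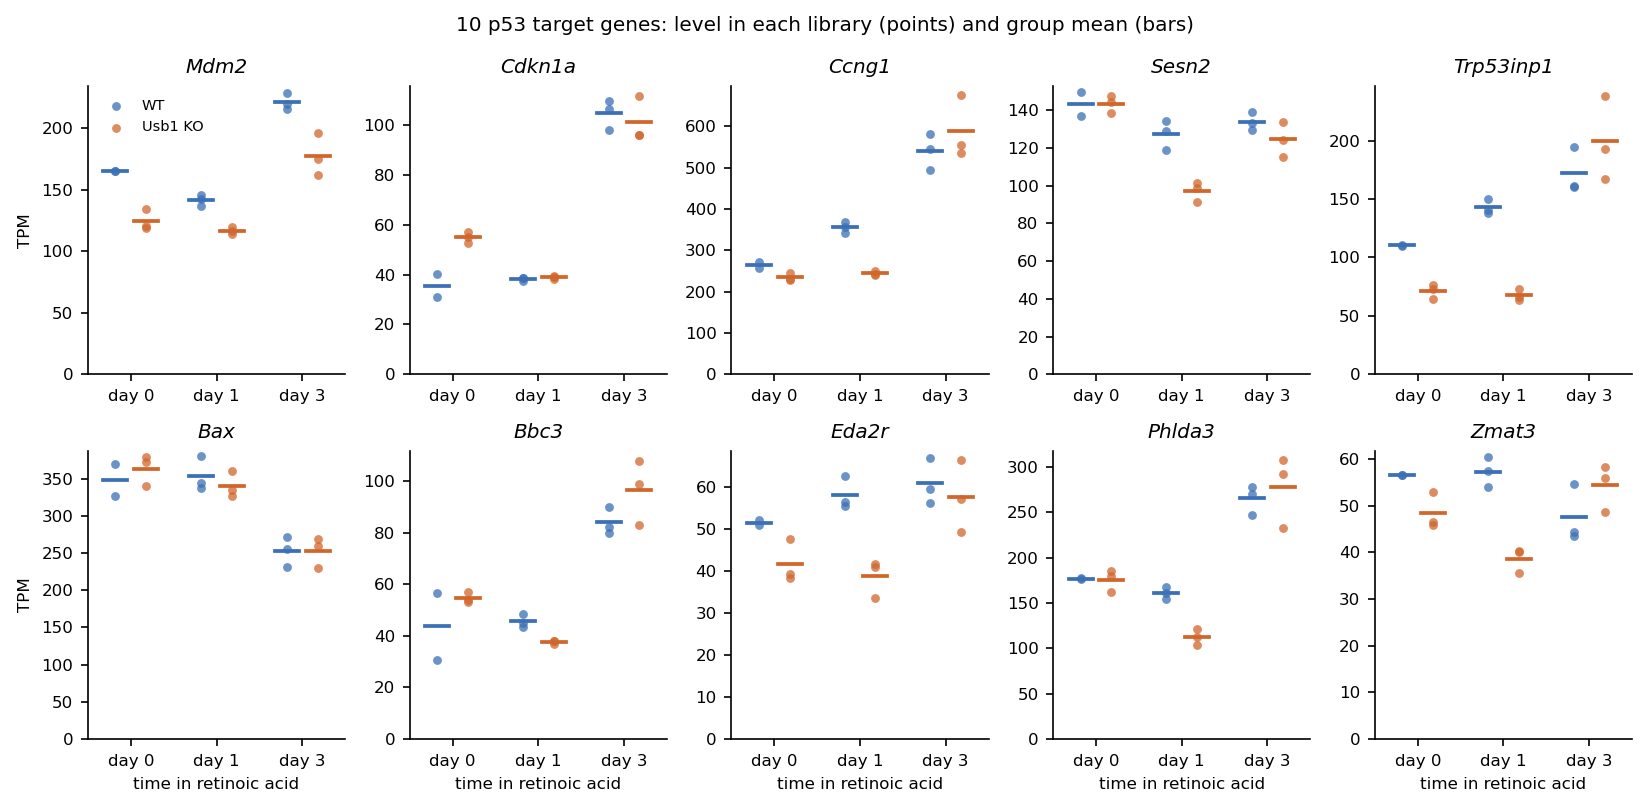
Level of each p53 target gene in TPM (linear vertical axis from 0) at day 0, 1 and 3 of RA, with 1 point for each library and a bar at the group mean, WT in blue and *Usb1* KO in orange. *Cdkn1a*, *Mdm2*, *Ccng1*, *Trp53inp1*, *Bbc3* and *Phlda3* stand highest at day 3 in both genotypes, as does *Eda2r* by its group means. *Bax* stands lowest at day 3, and 7 of 10 genes have their lowest group mean in KO cells at day 1.

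*Cdkn1a* (chr17:29090976-29100727) encodes p21, the inhibitor of cyclin-dependent kinases through which p53 halts the cell cycle. It stood at 31.0 and 40.1 TPM in WT cells at day 0, at 38.6, 37.4 and 38.7 TPM at day 1, then at 98.1, 107 and 109.8 TPM at day 3. KO libraries gave values of 55.2, 52.6 and 57.1 TPM at day 0, 39.5, 38.2 and 39.2 TPM at day 1, then 95.9, 112 and 96.0 TPM at day 3. Both genotypes were thus low at day 1 and high at day 3 without overlap, and they separated at day 0, where the KO libraries were all above the WT libraries. From day 0 to day 3, *Cdkn1a* rose 2.92-fold in WT cells (log2 fold change 1.54 ± 0.09 SE, adjusted p = 3.78e-09, or 1.36 without WT day 0 replicate 1) and 1.82-fold in KO cells (0.87 ± 0.08, adjusted p = 5.54e-07). In KO cells it first fell 1.40-fold in the first day (log2 fold change -0.49, adjusted p = 5.39e-04). The first-day change in WT cells was 0.11 (adjusted p = 0.376), and without WT day 0 replicate 2 it was 0.29 and passed (adjusted p = 0.0194). A gene on the opposite strand, AC167363.2, shares 7.68% of the exon bases of *Cdkn1a* and reached 16.4 TPM, and since the counting is not stated to use strand, its reads cannot be separated from these.

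*Mdm2* (chr10:117688875-117710758) encodes the ubiquitin ligase that feeds back on p53. In WT cells it was at 165 TPM in each day 0 library, at 137, 146 and 143 TPM at day 1, then at 216, 219 and 228 TPM at day 3. KO cells had values of 135, 119 and 121 TPM at day 0, 119.6, 116 and 114 TPM at day 1, then 162, 175 and 196 TPM at day 3. At each day the KO libraries were all below the WT libraries. From day 1 to day 3 it rose 1.56-fold in WT cells (log2 fold change 0.64 ± 0.06, adjusted p = 1.37e-06) and 1.51-fold in KO cells (0.60 ± 0.06, adjusted p = 2.73e-06). Its fall in the first day in WT cells (log2 fold change -0.22, adjusted p = 0.0264) no longer passed without WT day 0 replicate 1 (adjusted p = 0.097), WT day 0 replicate 2 (0.0776), WT day 1 replicate 1 (0.081) or WT day 1 replicate 3 (0.0515).

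*Ccng1* (chr11:40748552-40755311) encodes cyclin G1, which recruits a phosphatase to MDM2 and is one of the most strongly expressed members. It was at 273 and 258 TPM in WT cells at day 0, at 358, 342 and 369 TPM at day 1, then at 494, 544 and 582 TPM at day 3. Its KO values were 245, 231 and 228 TPM at day 0, 250, 239 and 243 TPM at day 1, then 554, 535 and 676 TPM at day 3. The WT libraries climbed at each step without overlap, whereas the KO libraries of day 0 and day 1 overlapped and all of the rise came after day 1. In the first day the log2 fold change was 0.42 ± 0.09 in WT cells (adjusted p = 0.00171) and 0.06 ± 0.08 in KO cells (adjusted p = 0.66). From day 1 to day 3 it rose 1.51-fold in WT cells and 2.39-fold in KO cells.

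The members that carry cell death did not move as a block. *Bax* (chr7:45461697-45466898) encodes the BCL-2 family protein that opens the outer mitochondrial membrane. It was at 369.6 and 327 TPM in WT cells at day 0, at 338, 379.8 and 344 TPM at day 1, then at 255, 271 and 232 TPM at day 3. The KO libraries were at 339, 372 and 378 TPM at day 0, at 327, 334 and 360.0 TPM at day 1, then at 269, 259.8 and 229.9 TPM at day 3. The genotypes overlapped at each day, and the day 3 libraries lay below those of the earlier days in both. *Bax* was the member that fell from day 1 to day 3 in both genotypes, 1.40-fold in WT cells (log2 fold change -0.49 ± 0.08, adjusted p = 1.38e-04) and 1.35-fold in KO cells (-0.43 ± 0.08, adjusted p = 4.11e-04).

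*Bbc3* (chr7:16308393-16318205) encodes PUMA, the BH3-only protein that frees BAX and BAK to act. In WT cells it was at 30.8 and 56.8 TPM at day 0, at 48.4, 45.1 and 43.6 TPM at day 1, then at 82.4, 90.1 and 80.0 TPM at day 3. KO values were 53.8, 57.2 and 53.3 TPM at day 0, 37.0, 37.9 and 37.9 TPM at day 1, then 98.8, 108 and 83.0 TPM at day 3. Its 2 WT libraries of day 0 lay apart, with the low value in replicate 1, and without replicate 2 the first-day change in WT cells passed (log2 fold change 0.55, adjusted p = 0.00194). From day 1 to day 3 it rose 1.82-fold in WT cells (adjusted p = 3.36e-04) and 2.51-fold in KO cells (adjusted p = 5.74e-06). The fall of *Bbc3* in the first day in KO cells (log2 fold change -0.53, adjusted p = 0.0199) did not pass without KO day 0 replicate 2 (adjusted p = 0.0629) or KO day 1 replicate 1 (0.0561).

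*Eda2r* (chrX:97333840-97377216) encodes a receptor of the tumour necrosis factor family. It ranged from 50.9 to 67.0 TPM over all 8 WT libraries, and no RA step passed in WT cells. Values in KO cells were 47.7, 39.4 and 38.3 TPM at day 0, 40.9, 41.7 and 33.6 TPM at day 1, then 49.2, 57.3 and 66.4 TPM at day 3. The KO libraries of day 3 were all above those of day 1, and *Eda2r* rose 1.47-fold between them (log2 fold change 0.56 ± 0.12, adjusted p = 0.00116).

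*Phlda3* (chr1:135766119-135769136) encodes a pleckstrin-homology protein that holds back AKT. It was at 176 and 177 TPM in WT cells at day 0, at 154, 168 and 161 TPM at day 1, then at 270.5, 278 and 248 TPM at day 3. The KO libraries stood at 162, 179.8 and 185 TPM at day 0, at 104, 113 and 121 TPM at day 1, then at 292, 308 and 233 TPM at day 3. The genotypes overlapped at day 0 and day 3, and at day 1 the KO libraries lay below every other library of the study for this gene. *Phlda3* fell 1.55-fold in KO cells in the first day (log2 fold change -0.64 ± 0.09, adjusted p = 1.08e-04), where the WT change was -0.13 ± 0.10 (adjusted p = 0.331). It then rose 1.64-fold in WT cells and 2.44-fold in KO cells.

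*Trp53inp1* (chr4:11156431-11174379) encodes a nuclear and autophagy protein that assists p53 in death and arrest. In WT cells it was at 111 and 109.8 TPM at day 0, at 150.2, 138 and 141 TPM at day 1, then at 160.1, 161 and 195 TPM at day 3. KO libraries gave values of 76.8, 64.6 and 72.6 TPM at day 0, 66.2, 72.9 and 63.7 TPM at day 1, then 167, 193 and 238 TPM at day 3. The KO libraries were below all WT libraries at day 0 and day 1 and among them at day 3. From day 1 to day 3 it rose 2.90-fold in KO cells (log2 fold change 1.53 ± 0.11, adjusted p = 4.06e-08), and in WT cells the change was 0.26 ± 0.11 (adjusted p = 0.0762, or 0.0406 without KO day 3 replicate 1 and 0.0286 without KO day 3 replicate 3). The rise in the first day in WT cells (0.37, adjusted p = 0.0307) did not pass without WT day 0 replicate 1 (adjusted p = 0.104), WT day 0 replicate 2 (0.092), WT day 1 replicate 1 (0.0863) or WT day 1 replicate 3 (0.0554).

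*Sesn2* (chr4:132492032-132510501) encodes sestrin 2, a stress protein that restrains mTORC1. It was at 149.8 and 137 TPM in WT cells at day 0, at 134, 119 and 129 TPM at day 1, then at 133, 129.5 and 139 TPM at day 3. KO cells had values of 147, 144 and 138 TPM at day 0, 102, 98.5 and 91.1 TPM at day 1, then 115, 134 and 124 TPM at day 3. Only the KO libraries of day 1 stood apart, below all others of this gene. *Sesn2* fell 1.47-fold in the first day in KO cells (log2 fold change -0.56 ± 0.07, adjusted p = 1.67e-05) and rose 1.28-fold from day 1 to day 3 (0.35 ± 0.07, adjusted p = 4.55e-04), the latter not with equal median scaling (0.15, adjusted p = 0.0587).

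*Zmat3* (chr3:32334792-32366014) encodes a zinc finger protein that binds RNA and affects splicing and mRNA stability. It was at 56.5 TPM in each WT library of day 0, at 60.5, 53.9 and 57.4 TPM at day 1, then at 44.4, 43.5 and 54.7 TPM at day 3. Its KO values were 52.9, 46.5 and 45.9 TPM at day 0, 40.2, 39.97 and 35.5 TPM at day 1, then 48.7, 55.9 and 58.3 TPM at day 3. The steps ran in opposite directions, with WT lower at day 3 than at day 1 (log2 fold change -0.27, adjusted p = 0.0321, libraries overlapping) and KO higher (0.48 ± 0.09, adjusted p = 7.2e-04). The fall of *Zmat3* in WT cells was lost without WT day 1 replicate 1 (adjusted p = 0.112), WT day 1 replicate 3 (0.0736), WT day 3 replicate 1 (0.118) or WT day 3 replicate 2 (0.13).

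**Figure D2:**
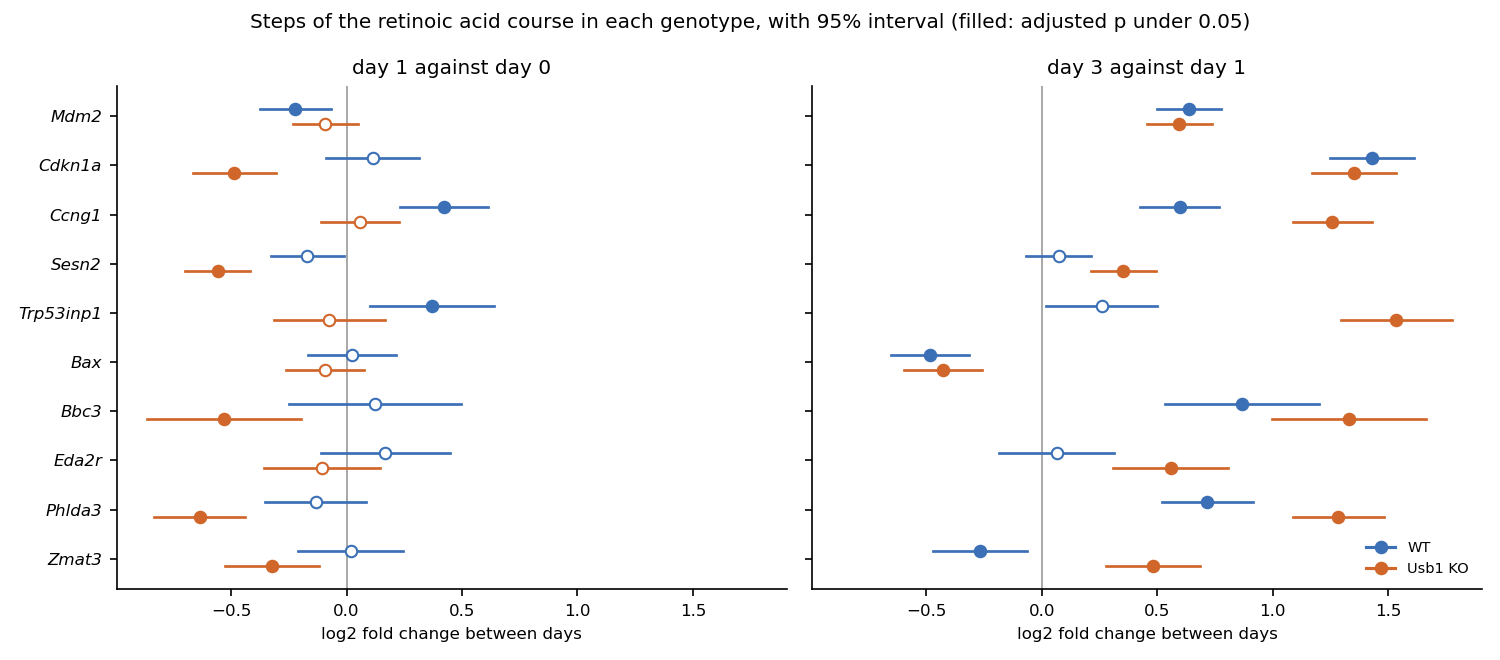
Log2 fold change of each p53 target gene (horizontal axis) from day 0 to day 1 (left) and from day 1 to day 3 (right), WT in blue and *Usb1* KO in orange, with 95% intervals and filled points where the adjusted p was under 0.05. In the first day 5 KO genes pass to the left of 0, and in the second step 9 KO genes pass to the right of 0, with *Bax* to the left in both genotypes.

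The second question was how KO cells differed from WT cells at each day. Without RA, at day 0, *Cdkn1a* was 1.54-fold higher in *Usb1* KO cells (log2 fold change 0.63 ± 0.09, adjusted p = 9.72e-04), while *Mdm2* was 1.33-fold lower (-0.41 ± 0.07, adjusted p = 0.00299) and *Trp53inp1* 1.54-fold lower (-0.63 ± 0.13, adjusted p = 0.00601). One member up and 2 down compare with 5.08% of all genes higher and 6.80% lower at day 0. The other 7 members had log2 fold changes from -0.30 for *Eda2r* to 0.38 for *Bbc3*, and the libraries of *Bax*, *Bbc3*, *Phlda3* and *Sesn2* overlapped between the genotypes. The 10 members had a median log2 fold change of -0.09, against 0 over all genes. All 3 calls rested on the spread shared across the 17 libraries, and with the 5 libraries of day 0 alone their adjusted p was 0.109 for *Cdkn1a*, 0.084 for *Mdm2* and 0.0694 for *Trp53inp1*. Without WT day 0 replicate 1, the library in which *Cdkn1a* was lowest, its log2 fold change was 0.44 and still passed. For *Bbc3* the comparison turned on 1 library, since without WT day 0 replicate 2 it was higher in KO cells by 0.81 (adjusted p = 4.46e-04) and without replicate 1 it was at -0.05.

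At day 1, 7 members were lower in *Usb1* KO cells and none was higher, where 13.6% of all genes were lower and 3.74% higher. No member was higher at an unadjusted p under 0.05 or by voom. *Trp53inp1* had the largest difference, 2.1-fold (log2 fold change -1.07 ± 0.11, adjusted p = 2.12e-05). It was followed by *Eda2r* at 1.49-fold (-0.58 ± 0.12, adjusted p = 0.00396), *Zmat3* at 1.47-fold (-0.56 ± 0.09, adjusted p = 0.00122), *Ccng1* at 1.46-fold (-0.54 ± 0.08, adjusted p = 3.57e-04) and *Phlda3* at 1.43-fold (-0.51 ± 0.09, adjusted p = 0.00176). *Sesn2* was 1.31-fold lower (-0.39 ± 0.07, adjusted p = 0.00123) and *Mdm2* 1.21-fold lower (-0.28 ± 0.06, adjusted p = 0.00934). The 3 members that did not pass were *Cdkn1a* at 0.03 (95% interval -0.15 to 0.21), *Bax* at -0.06 (-0.22 to 0.11) and *Bbc3* at -0.27 (-0.61 to 0.06). The *Bbc3* libraries did not overlap between the genotypes at day 1, and *Bbc3* passed without WT day 0 replicate 1 (adjusted p = 0.0323) or replicate 2 (0.0324), with its SE at 0.082 in both in place of 0.16.

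The whole distribution also lay lower at day 1, with a median log2 fold change of -0.13 over all genes tested and -0.45 over the 10 members. Quantile normalization, which puts the median of all genes at 0.01, left 7 members lower, and voom, with a median of -0.07, left 6. Scaling each library to an equal median put the median of all genes at 0.08 and left 4 members lower, *Trp53inp1* (-0.86), *Eda2r* (-0.36), *Zmat3* (-0.34) and *Ccng1* (-0.33), while *Phlda3* (-0.30, adjusted p = 0.168), *Sesn2* (-0.17, adjusted p = 0.0864) and *Mdm2* (-0.06, adjusted p = 0.544) did not pass. Without WT day 0 replicate 1 and KO day 3 replicate 1, 8 members were lower at day 1, with *Bbc3* added. In the same libraries the 6 embryonic stem cell markers summed to 3587 to 3678 TPM in KO cells and 2836 to 2922 TPM in WT cells. The 5 extraembryonic endoderm markers summed to 36.0 to 47.6 TPM in KO cells and 112 to 136 TPM in WT cells. Neither pair of ranges overlapped, and their part in the lower p53 targets was not tested.

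At day 3, 1 member differed, where 3.96% of all genes were higher and 3.56% lower in *Usb1* KO cells. *Mdm2* was 1.25-fold lower (log2 fold change -0.32 ± 0.06, adjusted p = 0.00725), and with the 6 libraries of day 3 alone its adjusted p was 0.114. The libraries of the other 9 members overlapped between the genotypes. Their log2 fold changes ran from -0.11 for *Sesn2* to 0.20 for *Trp53inp1*, with a 95% interval of -0.04 to 0.44 for the latter and -0.23 to 0.13 for *Cdkn1a*. The median was 0.03 over the 10 members and 0 over all genes. At this day the 6 embryonic stem cell markers summed to 510 to 578 TPM in KO cells against 312 to 353 TPM in WT cells, and 3 neural markers (*Pax6*, *Nes*, *Sox1*) to 109 to 129 TPM against 87.1 to 94.2 TPM. The 4 fibroblast or feeder markers (*Col1a1*, *Col1a2*, *Thy1*, *Postn*) summed to 47.7 to 56.1 TPM in KO cells and 26.1 to 33.4 TPM in WT cells at day 3, and *Postn* was listed at 0 in all libraries of day 0 and day 1. The 5 extraembryonic endoderm markers summed to 475 to 576 TPM in KO cells and 1312 to 1618 TPM in WT cells at day 3. The part of what these markers stand for in the *Mdm2* difference was not tested.

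**Figure D3:**
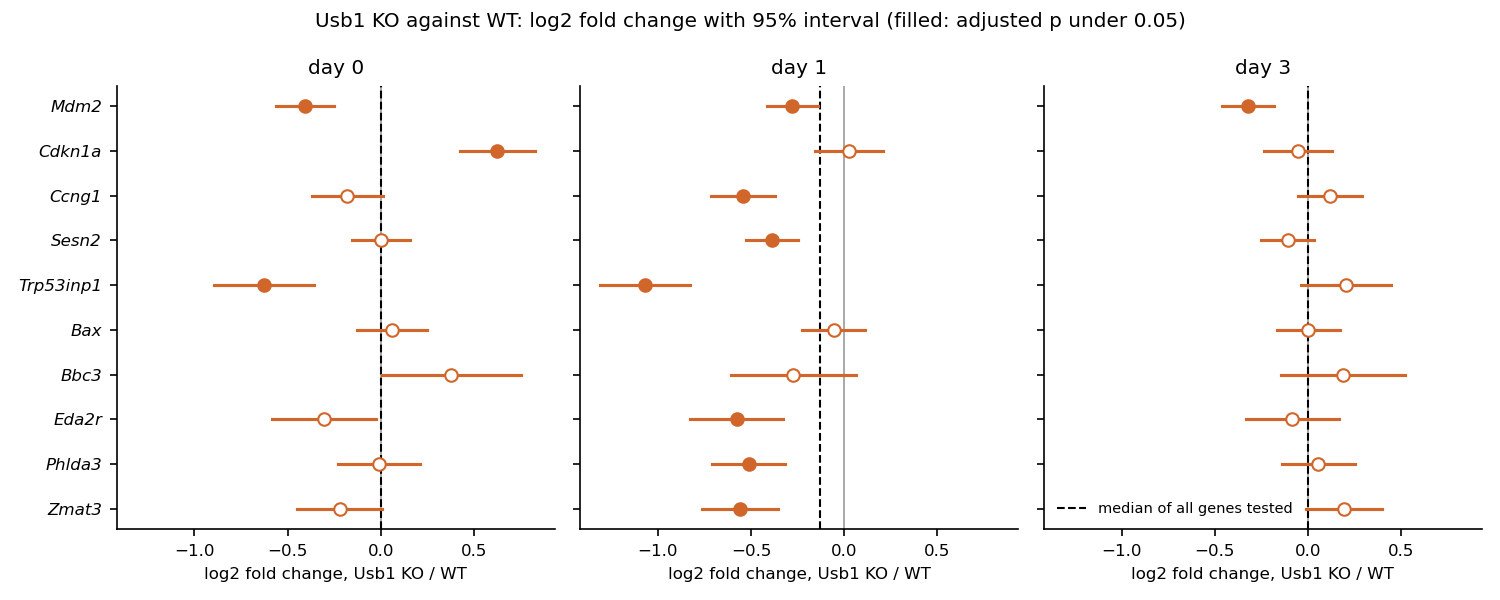
Log2 fold change of each p53 target gene in *Usb1* KO against WT cells (horizontal axis) at day 0, 1 and 3, with 95% intervals, filled points where the adjusted p was under 0.05, and a dashed line at the median of all genes tested. At day 1, 7 points are filled and lie left of the dashed line at -0.13, at day 0 *Cdkn1a* alone is filled to the right, and at day 3 *Mdm2* alone is filled.

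Whether the course differed between the genotypes was tested as the difference between the KO change and the WT change, for which a negative value means a smaller rise or a larger fall in KO cells. For day 1 against day 0, 1 member passed, *Cdkn1a*, against 2.23% of all genes, although 9 of 10 values were negative and 7 members had an unadjusted p under 0.05. The median was -0.38 over the 10 members and -0.12 over all genes. Without WT day 0 replicate 1, *Cdkn1a* did not pass (-0.42, adjusted p = 0.107), and without WT day 0 replicate 2, *Bbc3* passed (-1.08, adjusted p = 5.05e-04). For day 3 against day 1, *Trp53inp1*, *Zmat3*, *Ccng1* and *Phlda3* passed, all with a larger rise in KO cells, against 7.61% of all genes. Without WT day 0 replicate 1 and KO day 3 replicate 1, *Sesn2*, *Bbc3* and *Eda2r* passed as well, making 7. For day 3 against day 0, *Trp53inp1* rose more and *Cdkn1a* rose less in KO cells, against 6.15% of all genes. The sizes were 1.27 for *Trp53inp1* in the step from day 1 to day 3 and -0.68 for *Cdkn1a* over the whole course, both on the log2 scale. These comparisons share libraries with those above. For the step from day 1 to day 3, the median of all genes was 0.13, and with equal median scaling 3 members passed, with *Phlda3* lost (0.37, adjusted p = 0.317), as it was by voom (0.48, adjusted p = 0.0679). With the 11 libraries of day 0 and day 3 alone, neither *Trp53inp1* (adjusted p = 0.0631) nor *Cdkn1a* (0.0523) passed over the whole course.

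The genes upstream of these targets were read from a list of 19 p53 regulators, of which 18 were tested. *Trp53*, which encodes p53, was at 410.0 and 473 TPM in WT cells at day 0, at 336, 331 and 333 TPM at day 1, then at 199, 195 and 187 TPM at day 3. The KO libraries were at 438, 465 and 458 TPM at day 0, at 353, 356 and 343 TPM at day 1, then at 206, 221 and 213 TPM at day 3. *Trp53* mRNA thus fell at each step in both genotypes, 2.27-fold from day 0 to day 3 in WT cells (log2 fold change -1.18 ± 0.06, adjusted p = 3.35e-10) and 2.12-fold in KO cells (-1.08 ± 0.05, adjusted p = 2.21e-10). Between the genotypes its log2 fold change was 0.04 at day 0, 0.07 at day 1 and 0.14 at day 3, and none passed, with adjusted p of 0.681, 0.394 and 0.131. The libraries of *Trp53* did not overlap at day 1 and day 3, with KO above WT, and it passed at day 1 with equal median scaling (0.29, adjusted p = 0.0214) and by voom (0.18, adjusted p = 0.0386), and at day 3 without both WT day 0 replicate 1 and KO day 3 replicate 1 (0.17, adjusted p = 0.0349). p53 protein and its modifications, on which the activity of p53 mainly depends, were not measured here.

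*Mdm4*, the partner of *Mdm2* that masks the activation domain of p53, was lower in KO cells at each day. It was at 133, 106 and 118 TPM in KO cells against 186 and 189 TPM in WT cells at day 0, at 80.5, 93.5 and 69.6 TPM against 142, 129.8 and 133 TPM at day 1, and at 47.2, 63.8 and 68.5 TPM against 88.3, 83.3 and 103 TPM at day 3. The groups did not overlap at any day. The log2 fold changes were -0.66 (adjusted p = 0.0131), -0.73 (adjusted p = 0.00212) and -0.62 (adjusted p = 0.0117), and *Mdm4* did not pass at day 0 without WT day 0 replicate 1 (adjusted p = 0.0701) or KO day 0 replicate 2 (0.0526), nor at day 3 without WT day 3 replicate 3 (0.0539). *Ep300*, which encodes an acetyltransferase that acts with p53, was at 44.2, 46.3 and 33.5 TPM in KO cells and 85.3, 59.5 and 65.9 TPM in WT cells at day 1 (log2 fold change -0.75, adjusted p = 0.0135), and did not pass without WT day 1 replicate 1 (0.0746) or KO day 1 replicate 3 (0.0753). Of the 18 regulators tested, 5 were lower and 1 was higher at day 1, beside 13.6% and 3.74% of all genes and with a list median of -0.16 beside -0.13, with 2 lower and 2 higher after equal median scaling and 1 lower without KO day 1 replicate 3. *Cdkn2a*, whose ARF product restrains MDM2, rose over the course in both genotypes. It went from 0 and 7.32 TPM in WT cells at day 0 to 128, 140.3 and 118 TPM at day 3, and from 16.1, 17.3 and 16.7 TPM to 158, 166 and 138 TPM in KO cells. Its value of 0 was in WT day 0 replicate 1, and without that library its log2 fold change from day 0 to day 3 in WT cells went from 5.49 to 3.96 (adjusted p = 7.97e-10) and the KO difference at day 0 from 2.62 to 1.09 (adjusted p = 0.00389).

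A list of 42 other p53 targets, of which 40 were tested, gave a wider view. At day 0, 10 were lower and 1 was higher in KO cells, where 6.80% and 5.08% of all genes were. By voom, 8 were lower and 4 higher, and 6 were lower without KO day 0 replicate 2 or 3. The number passing as higher at day 0 fell without WT day 0 replicate 1 and rose without replicate 2, fits that leave 1 library in that group. At day 1, 17 were lower and 2 were higher, that is 17 of 40 beside 13.6% of all genes and 2 of 40 beside 3.74%, with 11 and 5 after quantile normalization, 12 and 4 by voom, and 9 and 6 after equal median scaling. At day 3, 4 were lower and 6 were higher, where 3.56% and 3.96% of all genes were, of which 2 passed as higher without WT day 3 replicate 1 or KO day 3 replicate 2. The median log2 fold change of the 40 genes was 0.01, -0.27 and 0.03 at the 3 days, and that of all genes 0, -0.13 and 0. Among the cell death genes of the list, 7 of 10 were lower at day 1, when 13.6% of all genes were (*Pmaip1*, *Perp*, *Tnfrsf10b*, *Aen*, *Apaf1*, *Pidd1*, *Ei24*), and 3 were with equal median scaling. The lower genes were not confined to cell death, since 4 of 6 cell cycle genes were lower at day 1 too. Of 7 genes of metabolism, redox and autophagy, 2 were lower and 1 higher. Of 6 genes of DNA repair and nucleotide supply, 1 was lower, and of 11 others, 3 were lower and 1 higher. Over the course, 19 rose and 14 fell from day 0 to day 3 in WT cells, where 29.6% and 22.5% of all genes did, and 17 rose and 11 fell in KO cells, where 29.7% and 21.8% did, or 14 and 18 with an equal median.

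Named by the size of their change, *Plk3*, a kinase of the stress and cell cycle response, was at 55.6, 48.9 and 47.5 TPM in KO cells against 77.6 and 82.6 TPM in WT cells at day 0 (log2 fold change -0.65, adjusted p = 2.22e-04). At day 1 it was at 123, 131 and 127 TPM against 248.9, 235 and 237 TPM (-0.91, adjusted p = 1.95e-06). *Gdf15*, a secreted stress cytokine, moved the other way, at 35.6, 30.9 and 26.1 TPM against 17.9 and 16.7 TPM at day 0 (0.79, adjusted p = 0.0391) and at 51.8, 53.1 and 45.2 TPM against 25.2, 24.2 and 20.9 TPM at day 1 (1.06, adjusted p = 0.00293). The *Gdf15* call at day 0 lay near the threshold and was lost without WT day 0 replicate 1 or 2, WT day 1 replicate 2, WT day 3 replicate 1, KO day 0 replicate 1 or 2, or KO day 1 replicate 1 or 2 (adjusted p from 0.051 to 0.13), and also after quantile normalization (0.0514), when weakly expressed genes were kept in (0.0624) or with 0.1 in place of 1 added to TPM (0.0957). From day 0 to day 3, *Gdf15* fell 5.93-fold in WT cells and 7.40-fold in KO cells and *Plk3* fell 4.67-fold in WT cells, while the death receptor gene *Fas* stood at 4.32, 2.93 and 4.38 TPM at day 3 in WT cells and 4.62, 6.57 and 8.51 TPM in KO cells after values of at most 0.581 TPM at day 0. *Dram1*, an autophagy gene, was at 4.71, 3.81 and 3.56 TPM in KO cells at day 3 after at most 0.784 TPM at day 0, and it rose in WT cells too, from 1.99 and 1.34 TPM to 6.32, 8.61 and 8.23 TPM. At day 3, *Gls2*, a mitochondrial glutaminase, was 1.75-fold lower in KO cells (-0.81, adjusted p = 1.3e-04) and *Epha2*, an ephrin receptor, 1.73-fold lower (-0.79, adjusted p = 9.37e-05), whereas *Pmaip1*, which encodes the BH3-only protein NOXA, was 1.53-fold higher (0.61, adjusted p = 0.00145). With the libraries of the comparison alone, *Mdm4* (adjusted p = 0.0875), *Plk3* (0.0682), *Gdf15* (0.0995) and *Cdkn2a* (0.256) at day 0 and *Mdm4* (0.141) and *Pmaip1* (0.0762) at day 3 did not pass.

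**Figure D4:**
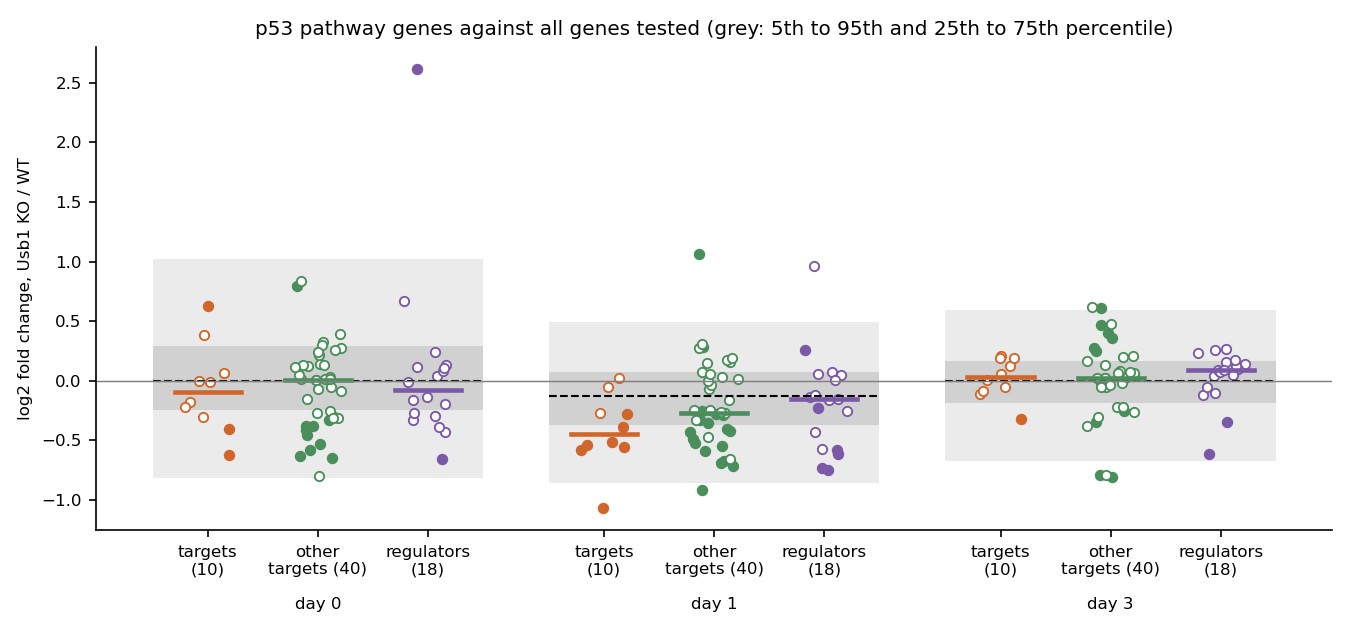
Log2 fold change in *Usb1* KO against WT cells (vertical axis) of the 10 p53 target genes, 40 other p53 targets and 18 p53 regulators at day 0, 1 and 3, with 1 point for each gene, filled where the adjusted p was under 0.05, and a bar at the median of the list. Grey bands span the 5th to 95th and the 25th to 75th percentile of all genes tested and the dashed line is their median. At day 1 the bar of the 10 targets stands at -0.45 and that of the other targets at -0.27, against -0.13 for all genes.

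Over the 17 libraries the members varied together only in part. Among the 45 pairs, 36 correlations of log2(TPM + 1) were positive and 9 negative, with a median Pearson's r of 0.51. The closest pair was *Cdkn1a* and *Bbc3* (r = 0.95), followed by *Ccng1* and *Trp53inp1* (0.94), and the most opposed was *Ccng1* and *Bax* (-0.89). Outside the members, the genes whose pattern was most like *Cdkn1a* were *Nrp2* (0.98), *Fosl2* (0.98) and *Carmil3* (0.98), and those most like *Mdm2* were *Arhgap27* (0.98), *Ccnl2* (0.97) and *Cd55* (0.97). All of these values share the 6 groups and the same libraries, and they describe the course rather than single libraries.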

How the data were processed

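The authors sequenced 17 NEBNext Ultra libraries and deposited TPM for each gene and library. The submitters' processing notes name HISAT2 (2.1.0), StringTie (1.3.6) and GRCm38.p6. The p53 target genes and the gene lists were chosen with earlier results of these data known. Coordinates and exon lengths came from GENCODE M21 (GRCm38), in which 54495 of the 54532 gene identifiers were found. TPM times exon length, divided by a step found for each library, gave back whole read numbers (within 0.01) for 95.9% to 96.6% of genes above 0. The model was limma 3.58.1 (R 4.3.3) on log2(TPM + 1), with 6 group means, all 17 libraries and a variance trend, for the 21871 genes that had a TPM of 1 or more in 2 or more libraries. Adding 1 before taking logs shrinks the change of weakly expressed genes. Benjamini-Hochberg adjustment ran over all these genes in each comparison. The model was tested on simulated data. Outside the 10 genes, the named genes were *Trp53*, up to 4 of the listed genes with the largest change among those passing (each genotype comparison, and day 3 against day 0), and the 3 genes most correlated with *Cdkn1a* and with *Mdm2*. Other symbols stand for a count. Alternatives were a pseudocount of 0.1, other filters (none, or TPM of 5), a 2-fold minimum, quantile normalization, equal medians, robust variances, a replicate block, the libraries of the comparison alone, voom on recovered reads, and each library left out. Protein-coding genes alone and both libraries with few genes of 1 read left out, were chosen after seeing the data. Promoter windows were RefSeq sequences of GRCm38.p6. Plots used matplotlib 3.10.9 (Python 3.11.15, numpy 2.4.6, pandas 2.3.3).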

Additional observations from a re-analysis of the deposited data

Results flagged for a closer look

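Each of the following responses to RA differed between the genotypes by a test of the difference itself (limma, KO change minus WT change on the log2 scale). In the step from day 1 to day 3, *Trp53inp1* rose by 1.27 more in *Usb1* KO cells (SE 0.16, adjusted p = 2.49e-04), *Zmat3* differed by 0.75 (SE 0.13, adjusted p = 0.00364), *Ccng1* rose by 0.66 more (SE 0.11, adjusted p = 0.00255) and *Phlda3* by 0.57 more (SE 0.13, adjusted p = 0.0166). The *Zmat3* change in this step was 0.48 in KO cells and -0.27 in WT cells. That WT change (adjusted p = 0.0321, libraries overlapping) passed in 23 of 28 alternatives. Over the whole course from day 0 to day 3, the difference was 0.83 for *Trp53inp1* (SE 0.17, adjusted p = 0.0111) and -0.68 for *Cdkn1a* (SE 0.13, adjusted p = 0.00675). In the first day *Cdkn1a* differed by -0.60 (SE 0.13, adjusted p = 0.0288), since it fell in all 3 KO libraries relative to those of day 0, whereas the WT libraries of both days overlapped. That value for *Cdkn1a* passed in 16 of 28 alternatives, and without WT day 0 replicate 1 it was -0.42 (adjusted p = 0.107). No group had the 4 samples that a test for outlying samples needs.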

How the results depend on the processing

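Groups of 2 to 3 libraries limited which small differences could pass, and every member had at least 312 reads in each library. Of 3360 values of single members under alternatives, 3208 kept their direction and their side of the threshold, 54 lost a call, 48 gained one, 50 changed sign without passing on either side, and none of a called value reversed. Part of this agreement was fixed in advance. Leaving out a library outside the groups compared cannot change a fold change, and neither can other filters, robust variances or protein-coding genes alone. In those fits only the p could move. A 2-fold minimum lowered the counts most, to 0 of the 10 at day 0, 1 at day 1 and 0 at day 3 between the genotypes, to 0, 1 and 2 in WT cells and 0, 5 and 2 in KO cells (day 1 against 0, day 3 against 1, day 3 against 0), and to 0, 1 and 0 for the differences of these responses. Where it gave 0, no member reached a 2-fold change, so no p decided those counts. With the libraries of the comparison alone, 0 members passed at day 0 (5 at an unadjusted p under 0.05, of which 1 was higher and 4 lower) and 0 at day 3 (1 lower, unadjusted). For the differences of responses with these libraries, 2 passed in the first day, *Ccng1* and *Phlda3*, while *Cdkn1a*, called in the main test, did not. Over the whole course 0 passed (2 higher and 1 lower, unadjusted). Equal median scaling gave 4 at day 1 between the genotypes and 0 for the first-day difference (1 higher and 5 lower, unadjusted, and 2 by voom). A filter at TPM of 5 and voom each gave 2 for that difference, and protein-coding genes alone gave 3. Leaving out both libraries with few genes of 1 read gave 1 in the first day in WT cells, and 0 and 7 for the differences in the first day and from day 1 to day 3. Leaving out each library in turn gave 1 to 3 in the first day in WT cells, 0 to 3 for the first-day difference (limma; 5 to 7 lower at an unadjusted p under 0.05 where it was 0) and 3 to 4, 7 to 8 and 1 to 1 between the genotypes at day 0, 1 and 3. For the first-day difference the count was 0 without WT day 0 replicate 1, WT day 1 replicates 1 or 3, KO day 0 replicates 1 or 3, or any KO library of day 1. Without KO day 0 replicate 1 (adjusted p = 0.0606) or KO day 3 replicate 1 (0.0815), the fall of *Sesn2* from day 0 to day 3 in KO cells no longer passed. Without KO day 0 replicate 1 (0.095) or KO day 1 replicate 3 (0.0921), the fall of *Zmat3* in the first day in KO cells no longer passed. The log2 fold changes stayed negative in these fits.

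Replicate numbers are shared by the groups, but libraries of the same number did not deviate together (median r of -0.0035 over 40 pairs, against 0.0044 over 80 pairs of different numbers). No pairing by number was thus seen, and the labels do not state whether the samples were paired by design. With the replicate block the counts were 3, 7 and 1 between the genotypes, 2, 7 and 7 in WT cells, 5, 10 and 9 in KO cells and 1, 4 and 2 for the differences, and the one call of a member that the block changed was the rise of *Trp53inp1* in the first day in WT cells.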
